A study of Mus musculus with 35 samples.

Results

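The 7 genes of the CIP/KIP and INK4 families of cyclin-dependent kinase inhibitors, *Cdkn1a*, *Cdkn1b*, *Cdkn1c*, *Cdkn2a*, *Cdkn2b*, *Cdkn2c* and *Cdkn2d*, were read by gene name from an RNA-seq count table of 53465 genes, and each name matched 1 row. Levels were compared between 35 libraries of tumor cells recovered from mice. The cells were KC-shSmad4 PDAC cells, which carry Ptf1a-Cre, a Rosa26 allele that gives rtTA3 and the red protein mKate2, and a GFP-linked shRNA against *Smad4* at Col1a1 that Dox switches on. They came from a mixed genetic background and also held luciferase. The hosts were female athymic nude mice of 6 to 8 weeks, which lack T cells, and all of them were kept on Dox food from the start.

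Primary tumors followed orthotopic injection of 100000 cells, liver metastases an injection of 400000 cells into a spleen that was then removed, and lung metastases an injection of 250000 cells into the tail vein. In the study, Smad4 on means that Dox was withdrawn, 4 weeks after injection into the pancreas, 5 weeks after injection for the liver and 6 weeks for the lungs. The mKate2-positive cells were sorted 7 or 14 days later. Which libraries had Dox withdrawn is known here from the labels alone, and measured *Smad4* mRNA went against them (below). On day 7 there were 3 libraries labelled Smad4 off and 2 labelled Smad4 on from primary tumors, 2 and 3 from liver metastases, and 4 and 2 from lung metastases. Day 14 added 2 and 3 from primary tumors, 3 of each label from the liver and 4 of each from the lungs. Each library has a mouse number in its label, and which cell line each came from is not given in the sources used here. Injection route, cell number and tumor age change with the organ and cannot be told apart from it.

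Cyclin-dependent kinase inhibitors slow the passage from G1 into S phase. The CIP/KIP proteins, p21 (*Cdkn1a*), p27 (*Cdkn1b*) and p57 (*Cdkn1c*), bind whole cyclin and kinase complexes, whereas the INK4 proteins bind CDK4 and CDK6 and keep them from D-type cyclins. In epithelial cells, TGF-β acting through SMAD proteins is known to induce *Cdkn2b* and *Cdkn1a*, and *Cdkn1a* is also a classic target of p53. *Cdkn2a* gives a pair of unrelated proteins, p16Ink4a and p19Arf, from different first exons, and its single row in the table cannot separate them.

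The bases just upstream of a transcript start of *Cdkn1a* and *Cdkn2b*, the members best known as TGF-β targets, and of *Cdkn2d*, whose liver groups did not overlap on either day (below), are shown so that the letters recognised by the factors in question can be seen. They are RefSeq sequences of GRCm38.p6, which had entries for 6 of the 7 members, and bases that lie in annotated exons were left out. *Cdkn1a* has a pair of RefSeq starts on chromosome 17, and the window shown belongs to the downstream one, which lies inside the gene (29090979 to 29100722). Capitals mark CAGAC or its reverse complement GTCTG, which holds the core bound by SMAD proteins, and GGGCGG, the GC box bound by Sp1 proteins.
*Cdkn1a*, plus strand, chr17:29093519-29093768: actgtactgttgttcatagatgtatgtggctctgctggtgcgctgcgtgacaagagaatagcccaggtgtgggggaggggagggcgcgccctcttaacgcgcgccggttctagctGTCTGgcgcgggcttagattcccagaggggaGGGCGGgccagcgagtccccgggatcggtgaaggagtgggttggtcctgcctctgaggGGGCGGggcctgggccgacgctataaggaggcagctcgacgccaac
*Cdkn2b*, minus strand, chr4:89311040-89311282: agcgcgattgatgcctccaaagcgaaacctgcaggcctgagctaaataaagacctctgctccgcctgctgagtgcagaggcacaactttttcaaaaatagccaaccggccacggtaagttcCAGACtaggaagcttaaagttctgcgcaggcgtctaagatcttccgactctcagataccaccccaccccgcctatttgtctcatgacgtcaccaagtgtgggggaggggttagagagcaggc
*Cdkn2d*, minus strand, chr9:21291408-21291459: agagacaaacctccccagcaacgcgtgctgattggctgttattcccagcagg

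The *Cdkn1a* window held 1 CAGAC match and 2 GGGCGG matches, and the *Cdkn2b* window 1 and 0. The *Cdkn1a* window not shown, at the start of the whole gene (chr17:29090729-29090975), held 1 and 0. The shorter *Cdkn2d* window held neither. Over 32851 windows of 250 bases upstream of RefSeq starts, read on both strands, 42.2% held CAGAC and 32.7% held GGGCGG; no matches overlapped here. A match describes letters and not a bound site.

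*Smad4* mRNA, the check of the labels, went against them. It stood at 77.9 to 132 CPM (counts divided by the library total and scaled to 1e6) in the 18 libraries labelled Smad4 off and at 14.4 to 23.2 CPM in the 17 labelled Smad4 on. It was lower in libraries labelled Smad4 on in all 6 comparisons of organ and day, with no overlap, and every direction below is therefore that of the label and not of measured *Smad4*. The totals per library ran from 11885461 to 43571007 counts (median 19415320), so that 3 counts correspond to 0.0689 to 0.252 CPM by counting error alone.

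The sorted cells held epithelial tumor markers at 2549 to 17804 CPM summed over 7 genes (*Epcam*, keratins, *Cdh1*, *Muc1*). Markers of other cells were also read. The 8 fibroblast markers summed to 9097 to 24560 CPM in primary tumors, 239 to 30515 CPM in the liver and 152 to 2221 CPM in the lungs. Immune markers summed to at most 370 CPM and endothelial ones to at most 91.4 CPM in any library. In bulk samples, fewer cells of a type and less RNA per cell cannot be told apart. Both day 7 liver libraries with the label Smad4 off stood apart from each other, since replicate 2 held 30515 CPM of fibroblast markers and replicate 1 held 330 CPM. Replicate 2 also held 306 CPM of acinar and 3231 CPM of tumor epithelial markers, against 4.91 and 12377 CPM in replicate 1. Hepatocyte markers summed to 68.9 CPM in replicate 2 and to 257 CPM in replicate 1. Replicate 2 alone was labelled paired-end. Counts of the mitochondrial gene *mt-Co3* were present in 10 libraries, 4 from the liver and 6 from the lungs, and absent from 25. The labels name no batch that matches this split, so results are also given without those 10 libraries.

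Per kilobase of transcript, *Cdkn1a* was the highest of the inhibitors and *Cdkn2a* the lowest. The median over 35 libraries was 89.8 CPM per kb for *Cdkn1a* (43.3 to 172), 22.3 for *Cdkn1b* (15.2 to 60.1), 18.0 for *Cdkn2d* (7.19 to 27.9) and 14.2 for *Cdkn2c* (7.42 to 32.8). *Cdkn1c* followed at 2.57 CPM per kb (0.558 to 10.7), *Cdkn2b* at 0.215 (0.0369 to 0.650) and *Cdkn2a* at 0.0598 (0 to 0.353). The ranges of genes next to each other in this order overlapped at every step, while the lowest *Cdkn1a* level lay above the highest of *Cdkn2d* and *Cdkn2c*. The counting is not stated to use strand, and *Cdkn1a* and *Cdkn1c* each overlap an annotated gene on the opposite strand, which makes their counts uncertain.

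**Figure D1:**
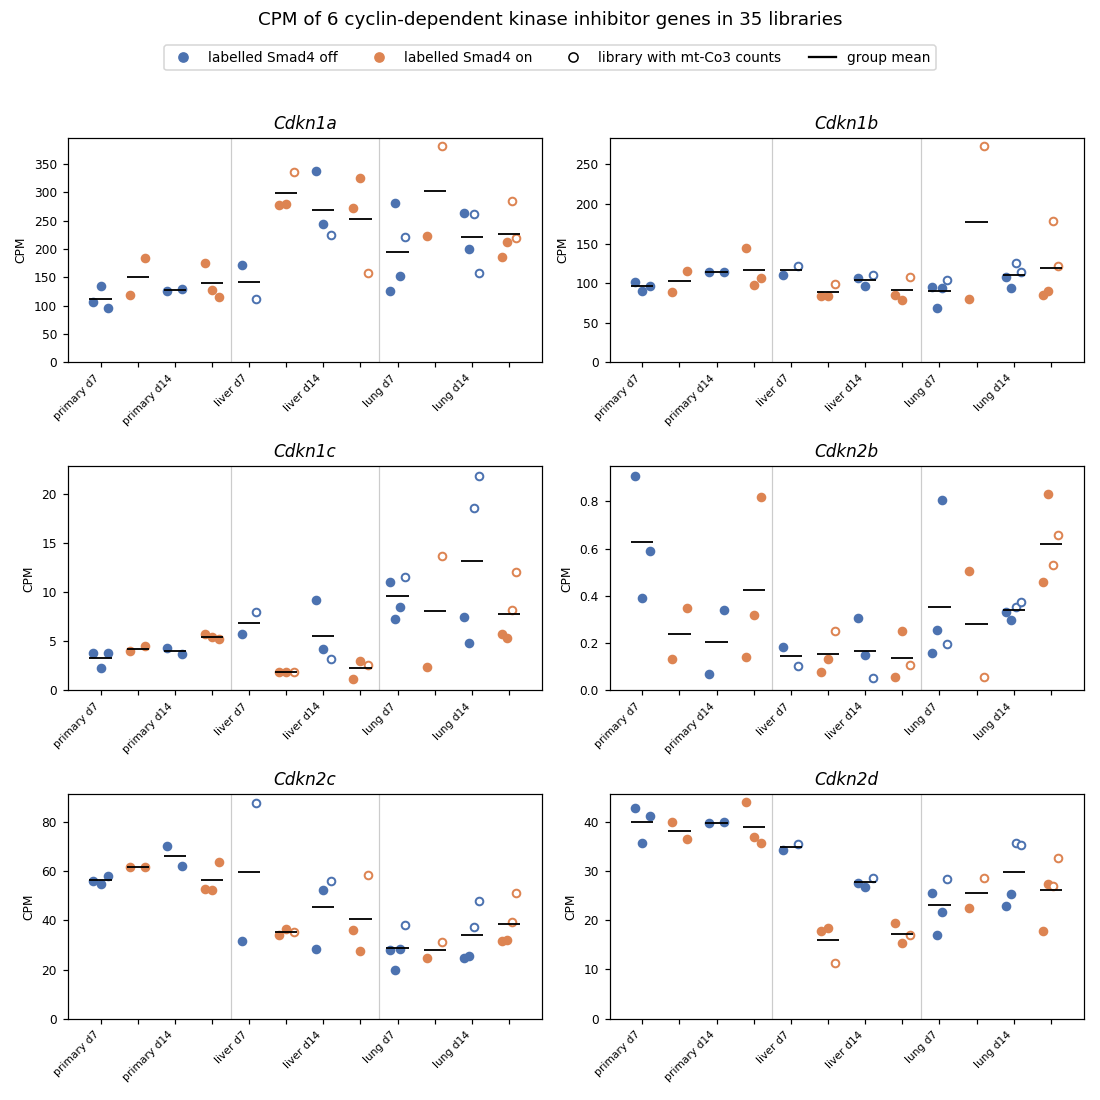
CPM of 6 inhibitor genes (vertical axes, linear) in each library, grouped by organ and day on the horizontal axis, with blue points for libraries labelled Smad4 off, orange for Smad4 on, open circles for libraries with mt-Co3 counts and bars for group means. In the liver all Cdkn1c and Cdkn2d points labelled Smad4 on lie under those labelled Smad4 off on both days, and Cdkn2b stays under 1 CPM everywhere.

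*Cdkn2a* and *Cdkn2b*, which lie side by side on chromosome 4 (GRCm38; 89274471 to 89294653 and 89306289 to 89311032, both on the minus strand), were close to the limit of detection in every organ. *Cdkn2a* received 61 counts in all 35 libraries together, with 0 counts in 10 of them and at most 0.413 CPM. *Cdkn2b* received 225 counts in all, between 1 and 17 per library (0.0514 to 0.906 CPM). *Mtap*, the neighbouring gene of a methionine salvage enzyme that is often lost together with them in tumors, was similarly low with 266 counts and 0.0358 to 1.26 CPM. The nearest genes outside this stretch that were not low were *Klhl9*, an adaptor of a ubiquitin ligase, on one side with 15.2 to 33.7 CPM, and *Dmrta1*, a DNA-binding factor, on the other with 30.0 to 76.5 CPM. Beyond *Dmrta1*, *Elavl2*, which encodes a neuronal RNA-binding protein, was low again, with 126 counts in all, 0 counts in 7 libraries and at most 0.846 CPM. Beyond *Klhl9*, *Focad* had 6.03 to 14.3 CPM and *Mllt3* 22.0 to 46.7 CPM. Per kilobase the medians ran from 6.06 at *Klhl9* through 0.0808 at *Mtap*, 0.0598 at *Cdkn2a* and 0.215 at *Cdkn2b* to 11.9 at *Dmrta1*. Of the interferon genes, *Ifne* lies between *Klhl9* and *Mtap*, and *Ifnb1* lies outside this stretch, between *Focad* and *Klhl9*. Both were low, with a median of 0 and with 8 and 79 counts in all. The study describes frequent homozygous loss of this locus in its cell lines, and whether these counts come from tumor cells or from other sorted cells was not tested.

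**Figure D2:**
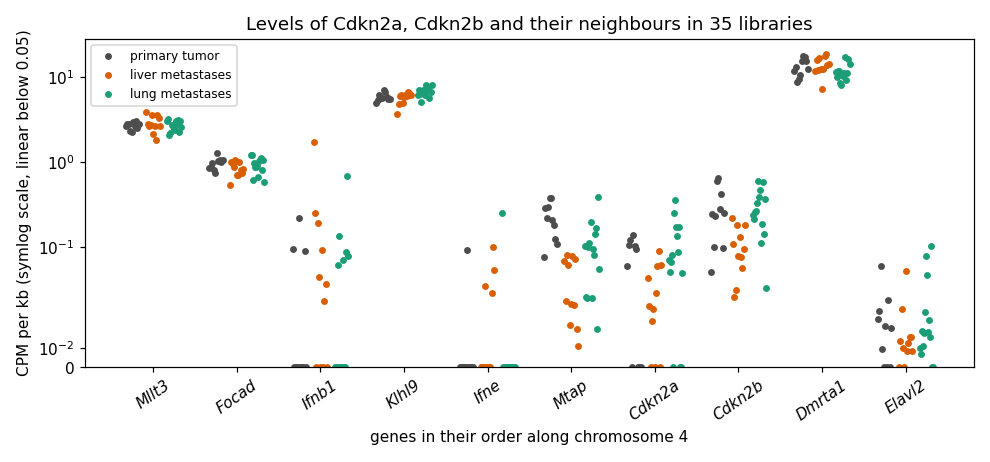
Levels of Cdkn2a, Cdkn2b and 8 neighbours in their order along chromosome 4 (vertical axis, CPM per kb on a symlog scale that is linear below 0.05), 1 point per library, coloured by organ. Mtap, Cdkn2a and Cdkn2b lie at least 10 times under Klhl9 and Dmrta1 by their medians.

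The label comparisons ask whether the inhibitors differed between tumor cells labelled Smad4 on and those labelled Smad4 off in the same organ on the same day. Genes passed if edgeR's quasi-likelihood test gave an adjusted P value (Benjamini-Hochberg) under 0.05 and more than a 2-fold change, and no member passed in any of the 6. The share of all tested genes that passed on day 7 was 1.33% for primary tumors, 0.444% for the liver and 0.0% for the lungs, and that on day 14 was 4.64%, 0.0% and 0.0271%. Before adjustment, P values under 0.05 in edgeR covered 4 members in the liver on day 7 (*Cdkn1a*, *Cdkn1b*, *Cdkn1c* and *Cdkn2d*), 1 in the liver (*Cdkn2d*) and 1 in primary tumors (*Cdkn2c*) on day 14, and 0 in the other 3. The share of all tested genes under 0.05 before adjustment in edgeR was 23.1% for primary tumors, 27.1% for liver and 5.22% for lung metastases on day 7, and 28.6%, 9.68% and 10.1% on day 14. DESeq2 with the same thresholds called *Cdkn1c* and *Cdkn2d*, 2 of the 5 members tested, in the liver on day 7, where it called 17.8% of all tested genes. It called 0 members in the other 5, and its share of all genes was 3.58% in primary tumors and 0.658% in the lungs on day 7, and 5.85%, 2.22% and 1.34% in primary tumors, liver and lungs on day 14. *Cdkn2a* was under the filter on low counts in every comparison. *Cdkn2b* passed the filter only in primary tumors on day 7 among the label comparisons.

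*Cdkn1c*, the p57 gene, had the largest label difference of the members tested, and it was in the liver. On day 7 it stood at 5.71 and 7.94 CPM in libraries labelled Smad4 off and at 1.86, 1.88 and 1.90 CPM in those labelled Smad4 on. On day 14 the values were 9.16, 4.21 and 3.18 CPM against 1.14, 3.04 and 2.54 CPM. The groups did not overlap on either day. Labelled Smad4 on was lower without overlap for 15.9% of 17547 genes in the liver on day 7 and for 5.64% on day 14. The edgeR log2 fold change was -2.04 on day 7 (SE 0.36, adjusted P = 0.0627) and -1.41 on day 14 (SE 0.60, adjusted P = 0.517), so *Cdkn1c* did not pass on either day.

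*Cdkn1c* on day 7 lay near the threshold. The call was made by DESeq2 (adjusted P = 2.3e-06), by edgeR without the filter on low counts (adjusted P = 0.0446) and by edgeR in a single fit of all 12 groups (log2 fold change -1.96, adjusted P = 0.0180). These settings called 17.8%, 3.34% and 17.6% of all genes, against 0.444% in the comparison itself. The call was not made without any 1 of the libraries labelled Smad4 on. Nor was it made with a block for the mouse number, which kept only the 2 numbers found under both labels. That block therefore also left out replicate 3 labelled Smad4 on. In each of those settings 0 genes were called. After seeing the data, both days were also fitted together with day as a covariate, which gave a log2 fold change of -1.69 and called *Cdkn1c* (edgeR adjusted P = 0.0282) among 5.67% of all genes. Leaving out a day 7 library labelled Smad4 off leaves 1 in that group, which is assumed to vary like the other group. When only replicate 2 labelled Smad4 off was left out, *Cdkn1c* was not called. Without replicate 1 the value was -2.30 (edgeR adjusted P = 0.0109) and rested on replicate 2, the library with 30515 CPM of fibroblast markers, with 19.8% of all genes called. Without the libraries with *mt-Co3* counts, which leaves replicate 1 alone, it was -1.69 (edgeR adjusted P = 1.5e-05), with 20.8% of all genes called.

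*Cdkn2d*, the p19Ink4d gene, was also lower by label in the liver, without overlap. In the liver on day 7 it stood at 34.2 and 35.4 CPM in libraries labelled Smad4 off and at 17.9, 18.4 and 11.3 CPM in those labelled Smad4 on. On day 14 it stood at 27.6, 26.8 and 28.6 CPM against 19.3, 15.4 and 16.9 CPM. All 6 libraries labelled Smad4 on were under all 5 labelled Smad4 off, as for 3.31% of 17547 genes, and the shares on each day alone were the 15.9% and 5.64% given above. In edgeR the log2 fold change was -1.30 on day 7 (SE 0.26, adjusted P = 0.0690) and -0.75 on day 14 (SE 0.17, adjusted P = 0.357). DESeq2 called *Cdkn2d* on day 7 (adjusted P = 0.000212), as did edgeR without the filter (adjusted P = 0.0358), with the shares of all genes given for *Cdkn1c*. It was also called without replicate 1 labelled Smad4 off (log2 fold change -1.39, edgeR adjusted P = 0.0281), a value that rests on replicate 2 as the single library of its group. When only replicate 2 labelled Smad4 off was left out, *Cdkn2d* was not called. The added fit of both days gave -0.9998 (edgeR adjusted P = 0.0138), just inside a fold of 2.

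*Cdkn1a*, the p21 gene, was higher in libraries labelled Smad4 on in the liver on day 7, at 278, 280 and 336 CPM against 172 and 111 CPM. These groups did not overlap, which held in this direction for 27.0% of 17547 genes. The log2 fold change was 0.94 (SE 0.23, edgeR adjusted P = 0.0871). On day 14 the groups overlapped, with 338, 244 and 225 CPM labelled Smad4 off and 273, 326 and 158 CPM labelled Smad4 on (log2 fold change -0.18, SE 0.33, edgeR adjusted P = 0.909). Without replicate 1 labelled Smad4 off the day 7 value was 1.21 (edgeR adjusted P = 0.0353), again with replicate 2 as the single library of its group and 19.8% of all genes called. When only replicate 2 labelled Smad4 off was left out, *Cdkn1a* was not called. The single fit of 12 groups, which called 17.6% of all genes, called it (1.02, edgeR adjusted P = 0.0370). Both days together gave 0.30 (edgeR adjusted P = 0.533).

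*Cdkn1b*, the p27 gene, had 111 and 122 CPM labelled Smad4 off and 83.9, 84.2 and 98.4 CPM labelled Smad4 on in the liver on day 7. The groups did not overlap, as for 15.9% of genes in this direction, and the log2 fold change was -0.55 (SE 0.20, edgeR adjusted P = 0.156). *Cdkn2c*, the p18Ink4c gene, had 31.6 and 88.0 CPM labelled Smad4 off and 34.3, 36.5 and 35.2 CPM labelled Smad4 on. Its log2 fold change of -0.97 (SE 0.48, edgeR adjusted P = 0.270) rested on replicate 2 labelled Smad4 off, the library with 30515 CPM of fibroblast markers. Each library labelled Smad4 off taken alone gave another value. Replicate 1 alone gave 0.10, and replicate 2 alone gave -1.54, which was called (edgeR adjusted P = 0.00488).

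Markers of other cells moved with the label in the same libraries. The 7 hepatocyte markers summed to 652 to 1042 CPM in the 6 liver libraries labelled Smad4 on and to 68.9 to 480 CPM in the 5 labelled Smad4 off. *Apob*, an apolipoprotein, made up most of this, at 619 to 970 CPM against 67.7 to 461 CPM. *Alb*, the albumin gene and the defining hepatocyte transcript, stood at 2.63 to 16.3 CPM and 0.668 to 12.5 CPM, and *Serpina1c* reached at most 0.263 CPM in any liver library. The 6 lung epithelial markers also did not overlap, with 8.43 to 35.4 CPM labelled Smad4 off and 139 to 324 CPM labelled Smad4 on on day 7, and 78.5 to 119 CPM against 224 to 385 CPM on day 14. This sum was nearly all *Sftpd*, a surfactant collectin, since *Sftpc*, the defining transcript of alveolar type II cells, reached at most 0.379 CPM in any liver library. Immune markers summed to 18.5 to 20.7 CPM against 45.5 to 67.3 CPM on day 7 and overlapped on day 14. The 7 tumor epithelial markers summed to 14734 to 17804 CPM labelled Smad4 on and 3231 to 15260 CPM labelled Smad4 off. The 3231 CPM, the 68.9 CPM of hepatocyte and the 8.43 CPM of lung epithelial markers all came from day 7 replicate 2 labelled Smad4 off. The part of these markers in the *Cdkn1c* and *Cdkn2d* values was not tested.

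**Figure D3:**
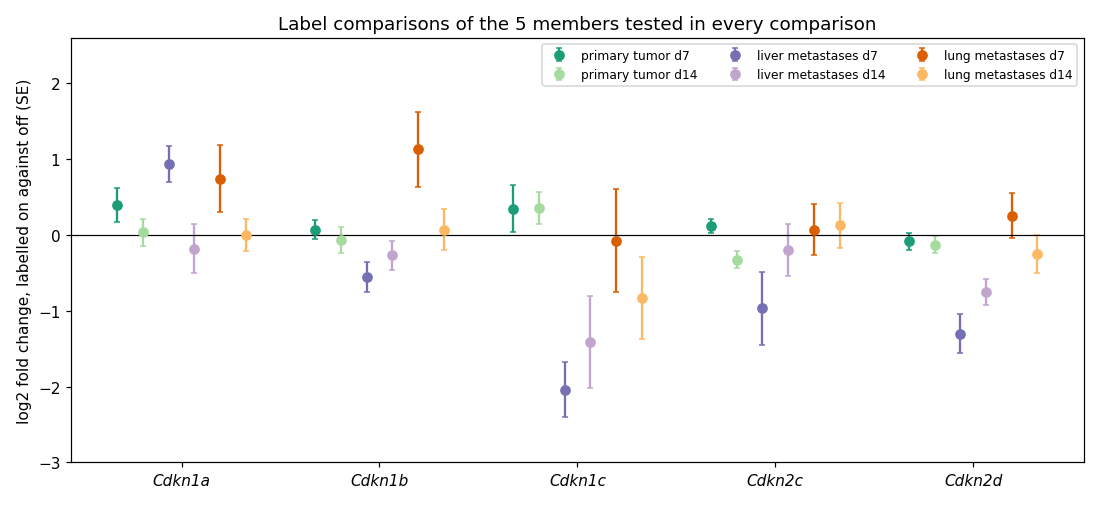
Log2 fold changes of 5 inhibitor genes, labelled Smad4 on against off (vertical axis), with bars for 1 SE from edgeR, coloured by organ and day. Cdkn1c and Cdkn2d lie at -2.04 and -1.30 in the liver on day 7, and the primary tumor values of all 5 genes lie between -0.33 and 0.40.

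In primary tumors no member was called by label. *Cdkn1c* was higher in libraries labelled Smad4 on without overlap on both days, with 4.01 and 4.51 CPM against 3.80, 2.29 and 3.83 CPM labelled Smad4 off on day 7. On day 14 they had 5.75, 5.42 and 5.25 CPM against 4.27 and 3.73 CPM. This direction held without overlap for 21.8% of 17547 genes on day 7 and 30.1% on day 14. The log2 fold changes were 0.35 (SE 0.31, edgeR adjusted P = 0.546) and 0.36 (SE 0.21, edgeR adjusted P = 0.317). Markers of other cells moved with the label on day 7. Fibroblast markers summed to 11419 to 17336 CPM labelled Smad4 off and 23958 to 24560 CPM labelled Smad4 on, with *Col3a1* and *Pdgfra* called higher, and acinar markers to 1827 to 2921 CPM against 686 to 942 CPM, with *Prss2* and *Ctrb1* called lower. Their part in the values of the primary tumors on day 7 was not tested.

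*Cdkn2b*, the p15Ink4b gene, had 0.906, 0.391 and 0.589 CPM labelled Smad4 off and 0.134 and 0.347 CPM labelled Smad4 on in primary tumors on day 7. The groups did not overlap, as for 18.0% of genes in this direction, and the log2 fold change was -1.35 (SE 0.66, edgeR adjusted P = 0.273). On day 14 they overlapped, with 0.0700 and 0.342 CPM against 0.140, 0.319 and 0.820 CPM. *Cdkn2c* in primary tumors had 56.1, 54.8 and 58.0 CPM labelled Smad4 off and 61.9 and 61.9 CPM labelled Smad4 on on day 7, and its groups overlapped on day 14 (log2 fold change -0.33, SE 0.11, edgeR adjusted P = 0.0999). *Cdkn1a*, *Cdkn1b* and *Cdkn2d* lay between -0.13 and 0.40 on the log2 scale on both days, with adjusted P values of 0.342 to 0.922 in edgeR.

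Among lung metastases, no inhibitor was separated by label on day 7, where groups were without overlap for 7.95% of 17547 genes with labelled Smad4 on lower and for 3.45% with it higher. *Cdkn1b* gave the largest difference there (log2 fold change 1.13, SE 0.49, edgeR adjusted P = 0.974), from 94.8, 69.0, 93.3 and 104 CPM labelled Smad4 off against 80.1 and 273 CPM labelled Smad4 on. The 273 CPM came from replicate 2 alone, and without it, with replicate 1 as the single library of its group, the value was -0.21. *Cdkn1c* had 11.1, 7.26, 8.53 and 11.5 CPM against 2.36 and 13.7 CPM, and the same library moved it from -0.07 to -2.06 when it was left out. That library held *mt-Co3* counts. On day 14 *Cdkn1c* had 7.44, 4.79, 18.5 and 21.8 CPM labelled Smad4 off and 5.78, 5.32, 8.15 and 12.01 CPM labelled Smad4 on (log2 fold change -0.83, SE 0.54, edgeR adjusted P = 0.676).

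*Cdkn2b* in the lungs on day 14 was the only member whose groups did not overlap, with 0.331, 0.299, 0.354 and 0.373 CPM labelled Smad4 off against 0.457, 0.830, 0.531 and 0.656 CPM labelled Smad4 on. Labelled Smad4 on was higher without overlap for 2.66% of 17547 genes there. These values rest on 4 to 17 counts per library, and the gene was under the filter of this comparison. *Cdkn2d* had log2 fold changes of 0.25 (SE 0.30, edgeR adjusted P = 0.998) and -0.25 (SE 0.26, edgeR adjusted P = 0.840) in the lungs on days 7 and 14.

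Whether liver and lung metastases differed in their response to the label was tested as an organ by label interaction. No member passed in edgeR, where 1.86% of genes passed on day 7 and 0.0% on day 14. Before adjustment, 3 members (*Cdkn1b*, *Cdkn1c* and *Cdkn2d*) were under 0.05 on day 7 and 0 on day 14 in edgeR, where 21.1% and 3.01% of all genes were. *Cdkn2d* came closest, with -1.50 on day 7 (SE 0.39, edgeR adjusted P = 0.0721), and it was called by DESeq2 (adjusted P = 0.0103) and with a covariate for *mt-Co3* counts (edgeR adjusted P = 0.0343). These settings called 11.5% and 6.34% of all genes. Leaving out the liver replicate 1 labelled Smad4 off called *Cdkn2c* and *Cdkn2d* among 2271 of 17518 genes, and leaving out the lung replicate 1 labelled Smad4 on called *Cdkn1b*, *Cdkn1c* and *Cdkn2d* among 5.94%. Either leaves replicate 2 as the single library of its group, so that the other groups give the spread. *Cdkn1c* had an interaction of -1.89 (SE 0.83, edgeR adjusted P = 0.229), which became 0.08 without the lung replicate 2 labelled Smad4 on, again with 1 library left in that group.

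The same interaction between liver metastases and primary tumors was chosen after seeing the data. For *Cdkn1c* it was -2.30 on day 7 (SE 0.46, edgeR adjusted P = 0.0624) and -1.72 on day 14 (SE 0.73, adjusted P = 1.000). In edgeR 0.814% of genes passed on day 7 and 0.0% on day 14, and 0 members. Before adjustment, *Cdkn1c* and *Cdkn2d* were under 0.05 on each day in edgeR, as were 20.4% and 4.14% of all genes. DESeq2 called *Cdkn1c* (adjusted P = 0.000196) and *Cdkn2d* (adjusted P = 0.00558) on day 7, among 8.93% of all genes. Without the libraries with *mt-Co3* counts, which leaves 1 liver library labelled Smad4 off, edgeR called *Cdkn1c* at -2.04 (adjusted P = 0.0449) among 3.84% of all genes.

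The organ comparisons ask how the family differed between primary tumors and metastases, with each organ averaged equally over day and label in 1 fit of 12 groups. *Cdkn1a* was at 96.3 to 184 CPM in 10 primary tumor libraries (median 127), 111 to 338 CPM in 11 liver libraries (median 273) and 125 to 382 CPM in 14 lung libraries (median 220). It was higher in liver metastases by a log2 fold change of 0.86 (SE 0.17, edgeR adjusted P = 0.000188) and in lung metastases by 0.80 (SE 0.17, adjusted P = 0.000296), both under a fold of 2. Liver and lungs differed by 0.06 (SE 0.16, edgeR adjusted P = 0.837). Without the libraries with *mt-Co3* counts the values against primary tumors were 0.98 and 0.56.

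*Cdkn2d* was lower in both metastases and *Cdkn2c* in the lungs, in each case by less than a fold of 2. The shares of all genes that passed without a fold threshold were again 46.4% in the liver and 48.2% in the lungs. *Cdkn2d* had medians of 39.8 CPM in primary tumors (35.6 to 43.9), 19.3 CPM in the liver (11.3 to 35.4) and 26.3 CPM in the lungs (16.9 to 35.7). Of the 25 metastasis libraries, 1 from the lungs was above the lowest primary tumor library. The log2 fold change of *Cdkn2d* was -0.73 in the liver (SE 0.12, edgeR adjusted P = 2.5e-05) and -0.61 in the lungs (SE 0.12, adjusted P = 0.000137). *Cdkn2c* had medians of 60.0, 36.2 and 31.5 CPM, with log2 fold changes of -0.36 in the liver (SE 0.19, edgeR adjusted P = 0.113) and -0.93 in the lungs (SE 0.18, adjusted P = 0.000140).

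The value of *Cdkn2c* in the lungs was close to a fold of 2 and was called without the day 7 replicate 4 labelled Smad4 off (-1.01, edgeR adjusted P = 6.3e-05) or the day 14 replicate 4 labelled Smad4 off (-1.01, adjusted P = 5.9e-05). Without all libraries with *mt-Co3* counts it was -1.28 (edgeR adjusted P = 2.9e-08). These settings called 19.9%, 21.2% and 20.7% of all genes. In the lungs, *Cdkn2c* stood at 19.9 to 32.2 CPM in the 8 libraries without *mt-Co3* counts and at 31.2 to 51.3 CPM in the 6 with them. *Cdkn2d* stood at 16.9 to 27.4 CPM and 27.0 to 35.7 CPM, and *Cdkn1b* at 69.0 to 108 CPM and 104 to 273 CPM.

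*Cdkn1c* was the member called higher in the lungs than in primary tumors. In the same comparison 21.8% of all genes passed, and 13.4% passed as higher. It ranged from 2.29 to 5.75 CPM in primary tumors (median 4.14), 1.14 to 9.16 CPM in the liver (median 3.04) and 2.36 to 21.8 CPM in the lungs (median 8.34). The log2 fold change was 1.17 for the lungs against primary tumors (SE 0.29, edgeR adjusted P = 0.00196) and -1.34 for the liver against the lungs (SE 0.28, adjusted P = 0.00128). The *mt-Co3* split moved with this difference, since the 8 lung libraries without these counts had 2.36 to 11.1 CPM (median 6.52) and the 6 with them 8.15 to 21.8 CPM (median 12.9). Without such libraries *Cdkn1c* gave 0.19 against primary tumors (edgeR adjusted P = 0.474) and -0.42 for liver against lungs (adjusted P = 0.167), and neither was called. Leaving out only the day 7 lung replicate 2 labelled Smad4 on gave 0.70 (edgeR adjusted P = 0.0485) and -0.88 (adjusted P = 0.0238), both under a fold of 2.

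The organ difference of *Cdkn1c* between liver and primary tumors turned with the label. Among libraries labelled Smad4 off it was 0.79 (SE 0.43, edgeR adjusted P = 0.230) and was not called. Among those labelled Smad4 on it was -1.19 (SE 0.40, edgeR adjusted P = 0.0298). These fits called 8.53% and 22.4% of all genes. *Cdkn2d* was likewise lower by -1.18 among libraries labelled Smad4 on (SE 0.17, edgeR adjusted P = 7.6e-05) and by -0.35 among those labelled Smad4 off (SE 0.18, adjusted P = 0.211). The interactions given above compare the label response of these organs on each day alone. The differences averaged over both days, as here, were not tested.

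*Cdkn2b* was called lower in the liver, against primary tumors (log2 fold change -1.07, SE 0.42, edgeR adjusted P = 0.0372) and against the lungs (-1.17, SE 0.39, adjusted P = 0.0361). In these comparisons 20.9% and 8.57% of genes passed, and 9.41% and 4.55% passed as lower. The values were 0.0700 to 0.906 CPM in primary tumors (median 0.344), 0.0514 to 0.304 CPM in the liver (median 0.132) and 0.0586 to 0.830 CPM in the lungs (median 0.364), all near the level of a few reads. The call was fragile, since leaving out any of 12 libraries raised the edgeR adjusted P value against primary tumors to 0.0520 to 0.247. These were replicate 1 labelled Smad4 off and replicate 2 labelled Smad4 on of the primary tumors on day 7, replicate 2 labelled Smad4 off and replicate 3 labelled Smad4 on of those on day 14, and 8 liver libraries, 4 from each day. The 8 were replicates 1 and 2 of both labels on day 7, and on day 14 replicates 2 and 3 labelled Smad4 off and replicates 1 and 3 labelled Smad4 on.

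Against the lungs, the *Cdkn2b* call was lost without any of the same 8 liver libraries or 5 lung libraries, with edgeR adjusted P values of 0.0506 to 0.405. The lung libraries were replicate 3 labelled Smad4 off and replicate 1 labelled Smad4 on of day 7, and replicates 3 and 4 labelled Smad4 off and replicate 2 labelled Smad4 on of day 14. Both calls were also lost without the filter on low counts (adjusted P = 0.0901 and 0.0868). *Mtap* was lower in the liver too, by -1.99 against primary tumors (SE 0.40, edgeR adjusted P = 0.000200) and by -1.14 against the lungs (SE 0.38, adjusted P = 0.0335).

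**Figure D4:**
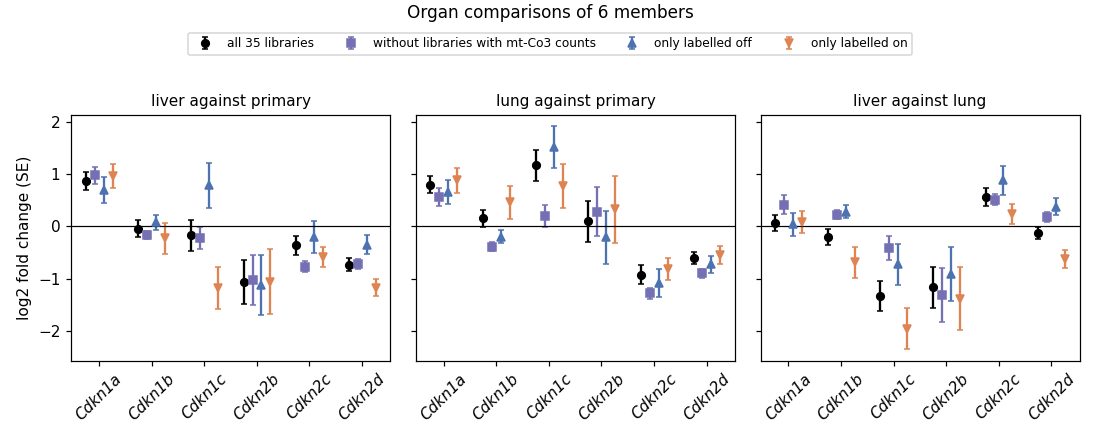
Log2 fold changes of 6 inhibitor genes between organs (vertical axis) with bars for 1 SE from edgeR, for all 35 libraries, for the 25 without mt-Co3 counts and for each label alone. The lung against primary value of Cdkn1c falls from 1.17 to 0.19 without the libraries with mt-Co3 counts, while Cdkn1a stays above 0 and Cdkn2d under 0 against primary tumors in every setting.

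Markers of other cells moved with these organ comparisons. The 8 fibroblast markers were all called lower in both metastases. Acinar markers summed to 686 to 2982 CPM in primary tumors, 4.91 to 306 CPM in the liver and 2.98 to 13.6 CPM in the lungs. The 306 CPM came from the day 7 liver replicate 2 labelled Smad4 off. Against primary tumors, the 7 tumor epithelial markers were all called higher in the liver and 3 in the lungs, 6 of 7 hepatocyte markers were called higher in the liver and 5 in the lungs, and 1 of 6 lung epithelial markers was called higher in the liver and all 6 in the lungs. Of 6 endothelial markers, 3 were called lower in the liver and 4 higher in the lungs, and all 6 were lower in the liver than in the lungs. Of 9 immune markers, liver metastases had 1 called higher with 3 lower, while lung metastases had 2 and 3. Their part in the levels of the inhibitors was not tested. Between day 7 and day 14 no member passed in any organ with edgeR or DESeq2, where edgeR passed 0.0% of all genes, and 0 members had an unadjusted P value under 0.05 in edgeR, against 11.4% of all genes in primary tumors, 8.88% in the liver and 6.39% in the lungs. The member log2 changes from day 7 to day 14 lay between -0.39 (*Cdkn2b*, primary tumors) and 0.63 (*Cdkn2b*, lungs).

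Other genes of the pathway were read from lists. Of 30 genes of the G1/S machinery, 2 were called, both lower labelled Smad4 on in primary tumors on day 7, where fibroblast markers were higher and acinar markers lower without overlap. They were *Top2a*, a topoisomerase of dividing cells (log2 fold change -1.04, edgeR adjusted P = 0.0306), and *Ccna2*, the S-phase cyclin A2 (-1.03, adjusted P = 0.0333). *Mki67*, the proliferation marker, was near the same size there (-0.99, edgeR adjusted P = 0.0397). The median of the 30 was -0.50 in that comparison against 0.01 over all genes, -0.56 against -0.06 in the liver on day 7 and -0.30 against -0.0021 in the liver on day 14. In the other 3 it was 0.053 against 0.0030 in the lungs on day 7, -0.064 against 0.016 in primary tumors on day 14 and -0.072 against -0.0037 in the lungs on day 14. *Ccnd1*, the D-type cyclin whose kinases INK4 proteins bind, was lower labelled Smad4 on in primary tumors on day 14 by -0.71 (edgeR adjusted P = 0.0180), under a fold of 2. Among organs none of the 30 was called.

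Of 18 upstream regulators of the inhibitors, 1 was called in any of these comparisons, *Cebpb*, a transcription factor that was higher in the lungs than in primary tumors (log2 fold change 1.84, edgeR adjusted P = 0.000107). *Trp53*, the p53 gene, differed by 0.22 between lungs and primary tumors (edgeR adjusted P = 0.00558) and by -0.32 between liver and lungs (adjusted P = 0.000458), well inside a fold of 2. Without a fold threshold, 48.2% and 20.4% of all genes passed in these comparisons. By label it was not called in any organ or day, with log2 fold changes of -0.37 to 0.04.

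The 13 neighbours of *Cdkn1c* in the imprinted region of chromosome 7 did not all change in the same direction. In the lungs against primary tumors 12 were tested, of which 4 were higher and 2 lower, where 21.8% of all genes were called. The neighbours are not given without the libraries with *mt-Co3* counts, without which *Cdkn1c* was not called. The higher ones were *Kcnq1*, a potassium channel (1.15, edgeR adjusted P = 2.1e-07), *Slc22a18*, a transporter (1.11, adjusted P = 4.6e-07), *Phlda2* (1.21, adjusted P = 0.000274) and *Kcnq1ot1*, the long RNA that silences *Cdkn1c* on the paternal chromosome (1.09, adjusted P = 0.000528). The lower ones were *H19* (-4.32, edgeR adjusted P = 1.6e-07) and *Tspan32* (-1.08, adjusted P = 0.0270). In the liver against primary tumors, where *Cdkn1c* gave -0.17 (SE 0.30, edgeR adjusted P = 0.666), *Kcnq1*, *Slc22a18*, *Phlda2* and *Ascl2* were higher and *H19* lower. In that comparison 20.9% of all genes were called. By label, *Kcnq1* alone was called, higher labelled Smad4 on in primary tumors on day 14 (1.13, edgeR adjusted P = 0.00196). *Kcnq1ot1* runs antisense within *Kcnq1*, and the reads of these can be separated only if the counting used strand.

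The genes whose levels ran most alike to each inhibitor were read over the 12 group means of log2 CPM, as a description without a test, since the 12 points share organs. *Cdkn2d* ran most like *Morc4*, *Adprh* and *Rab31* (Pearson's r = 0.983, 0.982 and 0.981) and *Cdkn2c* like *Ppib*, *Hebp1* and *AI427809* (0.973, 0.963 and 0.960). For *Cdkn1a* they were *Grasp*, *Gprc5a* and *Plk3* (0.961, 0.956 and 0.953), and for *Cdkn1c* they were *Dhh*, *Dync1i1* and *Arap3* (0.949, 0.939 and 0.939). *Cdkn1b* (*Il12rb1*, *AC131586.3* and *Zfp341*, 0.898 to 0.888) and *Cdkn2b* (*Gm15775*, *Kdr* and *Cyfip2*, 0.848 to 0.836) had the lowest values. None of the 3 genes of *Cdkn2b* was among its 3 closest at a pseudocount of 0.05 CPM in place of 0.5 CPM.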

How the data were processed

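RNA-seq was measured in 35 libraries of sorted tumor cells. The authors deposited whole-number counts per gene, not normalized, made with Trimmomatic 0.36, STAR 2.5.3a (genome GRCm38) and featureCounts 1.6.3, per the submitters' processing notes. Columns were joined to organ, day, label and mouse number by name, with 0 unmatched and 0 identical pairs. CPM were counts divided by the library total, and CPM per kb divided them by transcript length. Low genes were removed by filterByExpr (at least 10 counts in enough libraries and 15 in all) in edgeR 4.0.16 under R 4.3.3. The robust quasi-likelihood test with TMM scaling followed, adjusted by Benjamini-Hochberg over all genes tested. Calls needed an adjusted P value under 0.05 together with more than a 2-fold difference. P values measure the spread between these libraries, which the tests take as independent. Mouse numbers are separate within a group but recur between groups. In the study each mouse either stayed on Dox or had it withdrawn, by random assignment. Libraries with the same number under both labels in an organ and day therefore come from different mice. What a shared number stands for is not given in the labels. Scripts were tested on simulated data. The genotype of the cells is not reported here in full. Tables were made with Python 3.11.15 and pandas 2.3.3.

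The members and gene lists were chosen with earlier results of these data known. Named genes were all members, *Smad4*, *Mki67*, *Ccnd1*, *Trp53*, *Mtap*, *Dmrta1*, *Phlda2* and *Kcnq1ot1*, at most 4 called genes per list and comparison by the lowest adjusted P value, and the 3 genes most alike to each member over 12 group means (pseudocount 0.5 CPM). *Klhl9*, *Focad*, *Mllt3*, *Elavl2*, *Ifnb1*, *Ifne*, *Apob*, *Alb*, *Serpina1c*, *Sftpd*, *Sftpc* and *Tspan32* were named after their values were seen.

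A block for the mouse number was an alternative. It kept only libraries whose number occurs under both labels of the same organ and day. Deviations from group means correlated at 0.58 to 0.68 between libraries of the same number in the lungs on day 14. Both libraries of pairs 3 and 4 there hold *mt-Co3* counts, and both of pairs 1 and 2 hold none. Sharing a mouse number and this split therefore cannot be told apart there. Elsewhere the correlations were -0.37 to 0.48, below the limit of 0.1 in at least 1 pair of each comparison. Other alternatives were DESeq2 1.42.0, its size factors, other filters, a covariate for *mt-Co3* counts, a single fit of 12 groups, each label alone and leaving out each library. Chosen after seeing the data were the fit of both days together, the label comparisons without libraries with *mt-Co3* counts, and the interaction of liver and primary tumors.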

Additional observations from a re-analysis of the deposited data

Results flagged for a closer look

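*Cdkn2b* in lung metastases labelled Smad4 off of day 7 stood at 0.156, 0.258, 0.806 and 0.195 CPM in the 4 libraries. The gap of the highest library to the next, divided by the range of the 4, was 0.844, above Dixon's 95% critical value, which about 1 in 20 groups passes by chance. The rule was applied to every member in every group of 4 libraries, and this was its only flag. The values correspond to 3, 5, 12 and 3 counts.

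The label response of *Cdkn1c* had opposite directions in primary tumors and the liver. Libraries labelled Smad4 on were all higher in primary tumors and all lower in the liver on both days, and the liver response minus that of primary tumors was -2.30 on the log2 scale on day 7 and -1.72 on day 14. This lack of overlap was itself the rule that flagged the gene. It held for 21.8% and 30.1% of 17547 genes as higher in primary tumors on days 7 and 14. As lower in the liver it held for 15.9% and 5.64%. The interaction did not pass in edgeR on either day (adjusted P = 0.0624 and 1.000), while DESeq2 called it on day 7 (adjusted P = 0.000196), as it did 8.93% of all genes.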

How the results depend on the processing

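With few libraries per group and a filter that removed *Cdkn2a* everywhere, small differences of low members were not detectable. *Cdkn2a* and *Cdkn2b* lay near 3 counts per library. No member was called by label in edgeR, and the numbers below count members called.

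In the liver on day 7 this rose to 2 without the filter and with DESeq2 (*Cdkn1c*, *Cdkn2d*), to 1 with a covariate for *mt-Co3* counts, with both days together and without the libraries with *mt-Co3* counts (*Cdkn1c*), and to 3 in the fit of 12 groups (*Cdkn1a*, *Cdkn1c*, *Cdkn2d*). The share of all genes called went from 0.444% to 3.34%, 17.8%, 6.38%, 5.67%, 20.8% and 17.6% in this order of settings. Leaving out each library gave 0 to 4, where 4 came without replicate 1 labelled Smad4 off, with 19.8% of all genes called and 1 library left in that group. The liver on day 14 rose to 1 with both days together. The difference of response between liver and lungs on day 7 rose to 1 with DESeq2 and with the *mt-Co3* covariate (*Cdkn2d*). These settings called 11.5% and 6.34% of all genes. Leaving out single libraries moved this number only where 1 library was left in a group. The liver against primary tumors went from 1 to 3 of 6 members tested without a fold threshold, where 46.4% of all genes passed. It went to 0 without the filter, with 10 counts in every library, without libraries with *mt-Co3* counts and with only libraries labelled Smad4 off. These settings called 11.1%, 12.3%, 21.5% and 8.53% of all genes, against 20.9% in the comparison itself. The number was 2 with only libraries labelled Smad4 on, where 22.4% of all genes were called. Leaving out each library gave 0 to 1. The lungs against primary tumors went from 1 to 4 of 6 without a fold threshold, where 48.2% of all genes passed. The number was 2 with only libraries labelled Smad4 off and 0 with only those labelled Smad4 on. These settings called 18.3% and 13.5% of all genes, against 21.8% in the comparison itself. Leaving out each library gave 0 to 2. The liver against the lungs went from 2 to 1 without the filter, with 10 counts in every library and with only libraries labelled Smad4 on. These settings called 4.3%, 3.58% and 11.2% of all genes, against 8.57% in the comparison itself. The number was 0 without libraries with *mt-Co3* counts and with only those labelled Smad4 off, where 10.3% and 4.33% of all genes were called. Leaving out each library gave 1 to 2. The causes of these changes were not tested.

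Log2 fold changes that turned sign were mostly near 0. With both days together they were -0.010 for *Cdkn1b* and -0.12 for *Cdkn2c* in primary tumors, -0.049 for *Cdkn2d* and 0.30 for *Cdkn1a* in the lungs, and 0.30 for *Cdkn1a* in the liver against its day 14 value. Without libraries with *mt-Co3* counts they were 0.083 for *Cdkn2c* in the liver on day 7, -0.060 and -0.21 for *Cdkn1b* in the lungs on days 7 and 14, -0.068 for *Cdkn2c* in the added interaction of day 14, -0.39 for *Cdkn1b* in lungs against primary tumors (edgeR adjusted P = 0.000731), and 0.23 for *Cdkn1b* and 0.18 for *Cdkn2d* in liver against lungs. The *mt-Co3* covariate gave -0.10 for *Cdkn2c* in the lungs on day 7. *Cdkn1a* gave -0.0012 in primary tumors on day 14 without the filter, and in the lungs on day 14 it gave 0.0080 with 10 counts in every library, 0.0055 with the replicate block and 0.0035 in the fit of 12 groups. Only libraries labelled Smad4 off gave 0.080 for *Cdkn1b* and 0.79 for *Cdkn1c* in liver against primary tumors, -0.20 for *Cdkn1b* and -0.21 for *Cdkn2b* in lungs against primary tumors, and 0.28 for *Cdkn1b* and 0.37 for *Cdkn2d* in liver against lungs.

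Leaving out each library turned some signs, with these ranges. *Cdkn1a* ranged from -0.18 to 0.14 in primary tumors on day 14, from -0.41 to 0.071 in the liver and -0.17 to 0.15 in the lungs on day 14, from -0.21 to 0.85 and -0.40 to 0.076 in the liver and lung interaction of days 7 and 14, and from -0.042 to 0.19 in liver against lungs. *Cdkn1b* ranged from -0.12 to 0.23 and -0.27 to 0.029 in primary tumors on days 7 and 14, from -0.21 to 1.80 and -0.23 to 0.22 in the lungs, and from -0.14 to 0.0045, -0.16 to 0.28 and -0.38 to 0.10 in liver against primary tumors, lungs against primary tumors and liver against lungs. *Cdkn1c* ranged from -2.06 to 0.72 in the lungs on day 7 and from -2.74 to 0.077 and -0.96 to 0.079 in the liver and lung interaction of days 7 and 14. *Cdkn2b* ranged from -0.44 to 0.47 in lungs against primary tumors. *Cdkn2c* ranged from -1.54 to 0.10 and -0.58 to 0.011 in the liver and from -0.25 to 0.34 and -0.058 to 0.36 in the lungs on days 7 and 14, and from -1.55 to 0.072 in the interaction of day 7. *Cdkn2d* ranged from -0.074 to 0.51 in the lungs on day 7.

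A replicate block for the mouse number called 0 members in each label comparison and in each interaction. In the lungs on day 14, where the numbers also follow the *mt-Co3* split, genes called went from 4 to 109 with the block. They went to 127 with the *mt-Co3* covariate. *Cdkn1c* gave -0.63 with the block (edgeR adjusted P = 0.231). On day 7 and in primary tumors on day 14, the block also dropped libraries whose number occurs under a single label. Genes called went from 192 to 0 in primary tumors and from 71 to 0 in the liver on day 7. The same libraries without the block gave 47 and 0. Only 2 mouse numbers were left per organ on day 7, too few for the block to decide whether a call holds. Genes called went from 661 to 543 in primary tumors on day 14, against 549 in the same libraries without the block. In the day 7 interaction they went from 305 to 0.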
